A study of Homo sapiens with 8 samples.

Results

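Growth arrest genes were examined for changes in open chromatin after hyperosmotic stress, 8 in number: CDKN1A, MDM2, GADD45A, GADD45B, GADD45G, BTG2, PLK3 and SESN1. Their members are the ATAC-seq peaks that overlap the RefSeq body of each gene or the 20 kb on each side of it, which gave 62 of the 129536 peaks in the table. SESN1 held 15 of them, PLK3 9, GADD45B 8, MDM2 and BTG2 7 each, CDKN1A 6, and GADD45A and GADD45G 5 each. The overlap rule itself uses no measured value. All 62 peaks had enough counts to be tested.

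ATAC-seq cuts open chromatin with a transposase, so the count in a peak rises with the accessibility of that stretch of DNA. HEK293 cells, a human embryonic kidney line, were compared without stress (vehicle, 4 libraries) and after 1 h in 200 mM sorbitol, a sugar alcohol that draws water out of cells (4 libraries). The genotype field gives eGFP-YAP, a fusion of a green fluorescent protein to the transcriptional coactivator YAP, for both groups, while the titles name only the parental line. The series text also gives 1 h of serum starvation before the stress. The count columns label vehicle as 0 h and sorbitol as 1 h. If vehicle cells were taken at the start of the treatment, the added time and sorbitol itself cannot be told apart. The labels do not say whether the line is 1 clone or whether the libraries came from separate cultures, so p-values measure only the spread between these libraries. HEK293 cells carry adenoviral E1A and E1B genes, and the larger E1B protein binds p53, which limits the line as a model of p53 signalling. The RNA-seq, Hi-C and CUT&Tag parts of the study were not analysed here.

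p53 is a transcription factor that is kept low by the ubiquitin ligase MDM2 and accumulates under stress. It then raises genes that stop the cell cycle, among them CDKN1A, whose product p21 inhibits cyclin-dependent kinases, and MDM2 itself, which closes a feedback loop. The GADD45 proteins are small stress sensors that bind PCNA and the kinase MAP3K4, upstream of p38 and JNK, and their genes also answer to other stress factors. BTG2 is an antiproliferative protein that promotes mRNA deadenylation, PLK3 is a stress-responsive polo-like kinase, and SESN1 encodes sestrin 1, which restrains mTORC1.

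The start regions of 5 genes are shown first, picked from those that overlap the start-site peaks compared below. Others, such as those of CDKN1A and BTG2, also lie in such peaks and are not printed. Each is the 250 bases before a RefSeq start (GRCh38.p14), read 5′ to 3′ on the strand of the gene. The promoter table held windows for 7 of the 8 genes, 12 windows in all, and had no entry for GADD45A. A window there runs from 250 bases before a start to 50 after it. Motifs were searched on both strands over these 300 bases in all 35116 windows. The search took TGANTCA as the motif of AP-1 factors and CACGTG as the E-box bound by basic helix-loop-helix factors. It also took CCAAT as the letters known by that name, TATAAA as the core of the TATA box, GGGCGG as the GC box of SP1-like factors, and CATTCC as the motif of TEAD factors, the DNA-binding partners of YAP. The p53 site was searched as well. A p53 site meant 2 adjoining p53 decamers with no spacer, at most 3 mismatches and the core C and G of each decamer kept.

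The internal promoter of MDM2, at chr12:68808767-68809016 (plus strand, inside the gene), is printed with its AP-1 match and the p53 site found by this search in capitals.
MDM2 internal start: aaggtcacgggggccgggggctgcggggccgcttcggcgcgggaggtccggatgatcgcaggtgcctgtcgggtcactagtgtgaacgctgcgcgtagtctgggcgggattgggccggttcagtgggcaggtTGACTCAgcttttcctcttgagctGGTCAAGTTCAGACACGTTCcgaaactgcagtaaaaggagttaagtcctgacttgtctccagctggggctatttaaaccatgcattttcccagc
The internal start of SESN1, at chr6:109008989-109009238 (minus strand, inside the gene), is printed with the p53 site found by this search in capitals.
SESN1 internal start: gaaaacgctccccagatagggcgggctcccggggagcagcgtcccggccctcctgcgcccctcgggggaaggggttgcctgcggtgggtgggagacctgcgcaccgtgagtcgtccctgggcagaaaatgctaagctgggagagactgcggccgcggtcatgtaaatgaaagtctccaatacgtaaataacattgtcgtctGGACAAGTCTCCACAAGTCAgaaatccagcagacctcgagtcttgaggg

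The MDM2 match had 2 mismatches and lay at chr12:68808923-68808942, and the SESN1 match had 3 and lay at chr6:109009018-109009037. Sites that break the core letters are missed by this search, so these starts may hold others. Of all windows, 1.12% held such a match, and among the 7 genes with a window only these MDM2 and SESN1 starts did. The distal p53 element known for CDKN1A lies farther upstream than its window reaches, and the table had no peak between positions 36667699 and 36678376 of chromosome 6.

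GADD45B and GADD45G, the GADD45 genes whose start-site peaks rose, and PLK3, whose start-site peak fell, are shown next. The E-box, CCAAT and TATAAA matches are in capitals at GADD45B (chr19:2475877-2476126, plus strand), and the E-box and CCAAT matches at GADD45G (chr9:89604762-89605011, plus strand). At PLK3 (chr1:44800127-44800376, plus strand) the capitals mark GGAATG, which is the TEAD motif on the other strand, and the GC box.
GADD45B start: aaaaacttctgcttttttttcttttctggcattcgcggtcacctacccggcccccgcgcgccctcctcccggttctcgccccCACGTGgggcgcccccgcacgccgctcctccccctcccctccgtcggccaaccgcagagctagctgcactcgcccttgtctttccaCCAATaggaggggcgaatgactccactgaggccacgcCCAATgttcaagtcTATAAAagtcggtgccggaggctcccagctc
GADD45G start: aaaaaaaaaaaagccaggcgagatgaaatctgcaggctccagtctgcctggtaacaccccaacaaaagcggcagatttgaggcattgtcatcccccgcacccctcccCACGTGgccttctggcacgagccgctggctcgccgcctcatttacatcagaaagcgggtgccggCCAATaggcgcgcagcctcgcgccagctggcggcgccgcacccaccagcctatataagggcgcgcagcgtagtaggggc
PLK3 start: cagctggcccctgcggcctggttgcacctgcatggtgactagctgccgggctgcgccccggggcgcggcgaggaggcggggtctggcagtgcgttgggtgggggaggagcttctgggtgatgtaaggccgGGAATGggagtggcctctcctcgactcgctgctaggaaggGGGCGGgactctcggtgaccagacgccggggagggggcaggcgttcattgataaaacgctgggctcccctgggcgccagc

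GADD45B and GADD45G each held CACGTG, found in 7.26% of all windows, and CCAAT, found in 34.6%. The window of BTG2, whose start-site peak also rose, held CCAAT but not CACGTG. GADD45B alone among these 7 genes matched TATAAA, which 11.5% of windows held, at 31 bases before its start. Only these exact letters were counted, so variants such as the TATATAAG in the printed GADD45G region were not. Neither window matched GGGCGG, which 45.0% of windows held and which the windows of CDKN1A, MDM2, BTG2, PLK3 and SESN1 all matched. The TEAD letters occurred in 14.0% of windows, and among the 7 genes at PLK3 and in another SESN1 window. The AP-1 letters occurred in 7.71%, and among the 7 genes only at the MDM2 internal promoter. These matches describe the sequence and were not tested for occupancy.

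Total counts in peaks ranged from 11522266 to 19831471 per library, and the 62 peaks took 0.0822% to 0.0877% of each library. Correlations of log2 CPM (counts scaled to library totals) were 0.948 to 0.968 within groups and 0.910 to 0.927 between them. Start-site peaks were present for 7 of 8 genes listed as HEK293 markers (not KRT8) and for 2 of 9 markers of other cell types (MYOD1 and PECAM1). The deviations of the 2 replicate 4 libraries from their group means had a weak negative correlation (-0.132). Counts are also given without these libraries, a setting added after seeing the data. A peak count averages over the cells of a library, so more cells with an open site and more cuts per open site cannot be told apart.

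Of the 62 peaks, 8 rose and 9 fell after sorbitol at an adjusted p under 0.05 (edgeR's quasi-likelihood test, p adjusted over all 129487 tested peaks). The called share was 27.4% for these peaks and 29.1% for all tested peaks, of which 16.0% rose and 13.1% fell. The median log2 fold change was -0.10 for the 62 peaks and 0.01 for all peaks. At least 2-fold changes were called at 2 of the 62, against 6.15% of all peaks. The libraries of the groups did not overlap at 17 of the 62 (27.4%), with sorbitol above at 6 and below at 11, against 26.3% of all peaks. Taken as a set the 62 peaks therefore stood near the background. Without both replicate 4 libraries, 6 rose and 12 fell, and 14 calls were shared with the full data in the same direction.

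Calls are given by gene beside the shares over all tested peaks, 16.0% higher and 13.1% lower. Differences between genes were not tested. PLK3 had 4 peaks that fell and none that rose, GADD45B had 3 that fell and 1 that rose, and MDM2 had 1 that fell. GADD45A had 3 that rose, BTG2 2 and GADD45G 1, with none that fell. SESN1 had 1 in each direction among 15, and CDKN1A had none among 6. By an unadjusted p under 0.05, 2 CDKN1A peaks differed, and the 15 calls of DESeq2's Wald test were all among the 17 above, so none lay near CDKN1A.

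**Figure D1:**
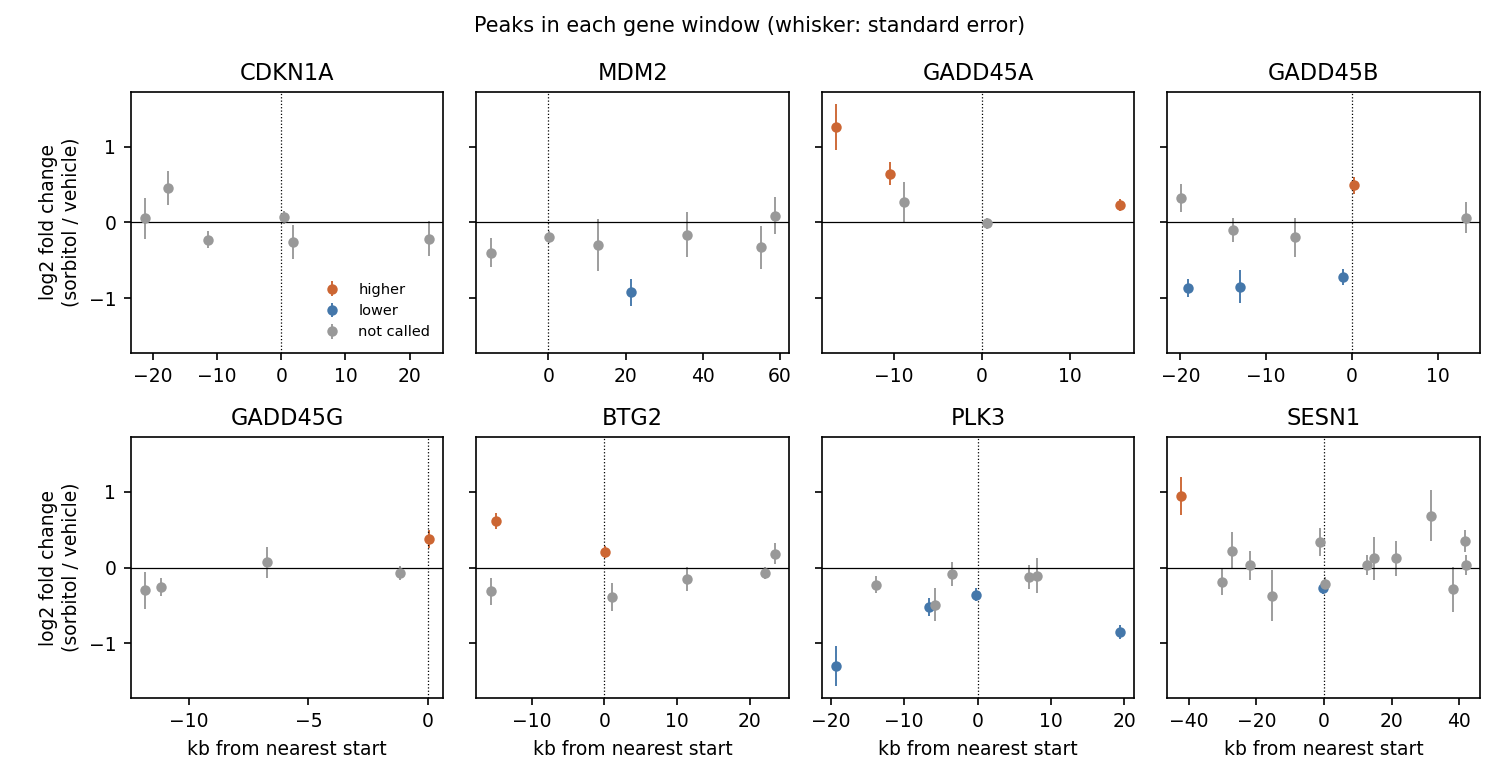
Log2 fold change (sorbitol over vehicle, vertical axis) of each of the 62 peaks against its distance in kb from the nearest start of its gene (horizontal axis, negative before the start), with standard errors as whiskers and 1 panel per gene. PLK3 peaks lie below 0 throughout, and the called GADD45A peaks (orange) lie above it.

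The start-site peaks were compared next, since they hold the promoters. There were 9 of them, 2 for SESN1 and 1 for each other gene. Those of GADD45B, GADD45G and BTG2 rose, those of PLK3 and the long SESN1 transcript fell, and the other 4 were not called. Of 12795 tested peaks that overlap any RefSeq promoter window, 48.0% were called, 6.98% as higher and 41.0% as lower. Their median log2 fold change was -0.19, against -0.01 for the 9 peaks. Strong peaks fell more often than weak ones across the table. In the strongest decile of peaks by mean count, which held 7 of the 9, 8.20% rose and 44.4% fell, and in the next decile, which held the GADD45B and GADD45G peaks, 14.3% rose and 27.5% fell. The part of peak strength in the direction of single peaks was not tested.

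**Figure D2:**
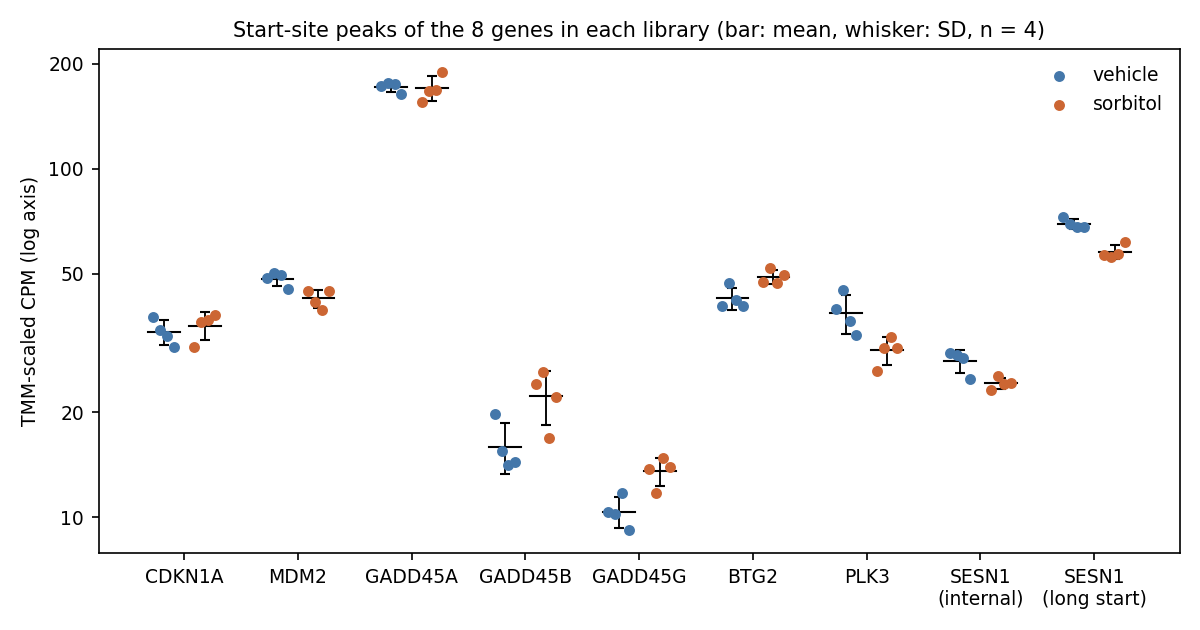
Normalised CPM (log axis) of the 9 start-site peaks in each of the 4 vehicle (blue) and 4 sorbitol (orange) libraries, with means as bars and SD as whiskers. The GADD45A peak stands highest in both groups, and the sorbitol libraries lie mostly above the vehicle libraries at GADD45B and GADD45G and below them at PLK3 and the long SESN1 start.

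Levels below are CPM, counts scaled to the library total, normalised with trimmed-mean (TMM) library factors, for replicates 1 to 4 in turn. CDKN1A encodes p21, the p53 target that inhibits cyclin-dependent kinases. Its start-site peak (chr6:36678376-36679985), which also holds the promoter of the long noncoding RNA gene DINOL, had 37.4, 34.5, 33.2 and 30.7 in vehicle and 30.7, 36.3, 36.8 and 37.9 in sorbitol. The groups overlapped almost completely. The means were 33.9 ± 2.79 and 35.4 ± 3.21 (SD, n = 4), a log2 fold change of 0.06 ± 0.09 (SE) with a 95% interval from -0.11 to 0.24 and an edgeR adjusted p of 0.628. It rose with a loess offset (0.24, adjusted p = 0.0171) and with factors from gene-boundary peaks (0.24, adjusted p = 0.0141), and without both replicate 4 libraries the direction turned (-0.025). The CDKN1A peak with the smallest p (chr6:36660774-36661178), 17.74 kb before the start, had a log2 fold change of 0.46 and an edgeR adjusted p of 0.124.

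MDM2 encodes the ligase that marks p53 for degradation, and both its upstream and its p53-responsive internal start lay in 1 peak (chr12:68807404-68809236). This peak had 48.6, 50.2, 49.5 and 45.2 in vehicle and 44.5, 41.4, 39.3 and 44.5 in sorbitol. All sorbitol libraries lay below all vehicle libraries, yet the log2 fold change of -0.19 ± 0.08 (SE) did not pass, with an edgeR adjusted p of 0.0713. It passed without vehicle 4 (adjusted p = 0.0388), without sorbitol 4 (0.0343) and without both (0.0122). The difference changed with the scaling: it was -0.00083 with a loess offset (adjusted p = 0.994), -0.013 with factors from gene-boundary peaks (0.913) and -0.11 with library totals alone (0.294). Inside the gene, a peak 21.33 kb after the nearest start (chr12:68830151-68830565) fell. It had 4.76, 6.20, 5.37 and 6.02 in vehicle and 2.75, 3.34, 3.26 and 2.47 in sorbitol. These groups did not overlap, and the log2 fold change was -0.92 ± 0.18 (SE) with an edgeR adjusted p of 8.68e-05.

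GADD45A is the GADD45 gene with a well-known p53 site in its body. Its start-site peak (chr1:67684728-67686995) was the strongest of the 9, with 172.1, 175.8, 175.3 and 163.5 in vehicle and 155.4, 167.5, 168.5 and 189.2 in sorbitol. The means of 171.7 ± 5.71 and 170.2 ± 14.0 (SD, n = 4) differed by less than the spread, with a log2 fold change of -0.01, a 95% interval from -0.15 to 0.13 and an edgeR adjusted p of 0.921. The library scaling turned this direction: with a loess offset the peak rose by 0.23 (adjusted p = 0.00138), and with factors from gene-boundary peaks by 0.16 (adjusted p = 0.0225).

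The 3 GADD45A peaks that rose lay in the flanks. A weak one 16.53 kb before the gene (chr1:67668544-67668800, mean count 20.3) had 0.476, 0.843, 0.825 and 1.30 in vehicle and 2.08, 1.94, 2.26 and 1.99 in sorbitol. It had the largest rise of the 62 peaks, a log2 fold change of 1.26 ± 0.31 (SE) with an edgeR adjusted p of 0.00134. Weak peaks rose more often than they fell across the table: in its decile by mean count, 20.3% rose and 2.72% fell. A peak 10.40 kb before the gene (chr1:67674544-67675061) went from 4.71 ± 0.757 to 7.37 ± 0.602 (SD, n = 4), with no overlap between groups and an edgeR adjusted p of 0.00106. The third (chr1:67700399-67701426) lay within 1 kb of an end of GNG12, a G protein subunit gene, and rose by 0.23 on the log2 scale (edgeR adjusted p = 0.0305), with overlapping groups.

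GADD45B, the member of the family known for fast induction by stress and cytokines, had opposite changes in adjoining peaks. Its start-site peak (chr19:2475833-2476894) had 19.8, 15.5, 14.1 and 14.4 in vehicle and 24.1, 26.1, 16.9 and 22.1 in sorbitol. It rose by 0.49 ± 0.11 (SE) on the log2 scale, the largest rise at a start site (edgeR adjusted p = 6.15e-04), although vehicle 1 lay above sorbitol 3. The peak centred 1.05 kb before the start (chr19:2474588-2475558) had 16.8, 17.5, 15.5 and 17.1 in vehicle and 10.7, 9.48, 9.21 and 11.1 in sorbitol. It fell by 0.72 on the log2 scale with no overlap (edgeR adjusted p = 1.46e-06).

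Of the other GADD45B peaks that fell, 1 held the promoter of LMNB2, the lamin B2 gene (chr19:2456701-2457370). It went from 14.2 ± 1.63 to 7.75 ± 0.872 (SD, n = 4), a log2 fold change of -0.87 ± 0.12 (SE) with an edgeR adjusted p of 2.84e-07. The other lay within 1 kb of an end of the noncoding gene LINC01775 (chr19:2462831-2463299) and had a log2 fold change of -0.85 (edgeR adjusted p = 0.00207). Both lay nearer to the neighbouring gene than to GADD45B.

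GADD45G is the GADD45 gene best known from development. Its start-site peak (chr9:89604789-89605359), which also holds a promoter window of the noncoding gene LOC105376139, had 10.3, 10.2, 11.8 and 9.17 in vehicle and 13.7, 11.7, 14.7 and 14.0 in sorbitol. Sorbitol 2 lay just under vehicle 3, and the other sorbitol libraries lay above all vehicle libraries. It rose by 0.38 ± 0.12 (SE) on the log2 scale (edgeR adjusted p = 0.0103), and by 0.30 without both replicate 4 libraries, where it did not pass (adjusted p = 0.0692).

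BTG2 had 2 peaks that rose. The start-site peak (chr1:203304995-203306322), shared with the divergent transcript BTG2-DT, had 40.4, 46.9, 42.1 and 40.4 in vehicle and 47.4, 51.9, 47.0 and 49.6 in sorbitol. The groups did not overlap, by a narrow margin. The log2 fold change of 0.21 ± 0.08 (SE) had an edgeR adjusted p of 0.0477 and did not pass in 12 of 18 alternatives, among them leaving out any library but vehicle 2 (adjusted p from 0.0556 to 0.148). A peak 14.88 kb before the start (chr1:203290309-203290980) rose from 11.4 ± 1.03 to 17.4 ± 0.857 (SD, n = 4), a log2 fold change of 0.61 ± 0.11 (SE) with an edgeR adjusted p of 1.61e-05 and no overlap.

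PLK3 had all 9 log2 fold changes below 0, from -1.30 to -0.09, with 4 called. The start-site peak (chr1:44799663-44800636) had 39.5, 44.9, 36.5 and 33.3 in vehicle and 26.2, 30.6, 33.0 and 30.6 in sorbitol. The groups came close without overlapping, and the log2 fold change was -0.36 ± 0.09 (SE) with an edgeR adjusted p of 0.00223. The call was lost with a loess offset (-0.18, adjusted p = 0.0826) and with factors from gene-boundary peaks (-0.18, adjusted p = 0.0914).

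A weak peak 19.28 kb before PLK3, near ends of BEST4 and RPS15AP11 (chr1:44780985-44781215), went from 2.84 ± 0.425 to 1.16 ± 0.345 (SD, n = 4). Its log2 fold change of -1.30 ± 0.26 (SE) was the largest fall among the 62 (edgeR adjusted p = 1.54e-04). Another peak that fell, within 1 kb of another end of BEST4 (chr1:44793426-44794079), fell by 0.52 on the log2 scale (edgeR adjusted p = 4.44e-04).

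SESN1 has a long transcript and shorter ones that begin at an internal, p53-responsive start. The peak at the long start (chr6:109094259-109095804), shared with CEP57L1 on the other strand, had 72.7, 69.6, 67.8 and 67.8 in vehicle and 56.6, 55.9, 56.7 and 61.6 in sorbitol. It fell by 0.27 ± 0.08 (SE) on the log2 scale with no overlap (edgeR adjusted p = 0.00633), a call lost with a loess offset (-0.06, adjusted p = 0.484) and with factors from gene-boundary peaks (-0.09, adjusted p = 0.285). The peak at the internal start (chr6:109008808-109009942), which holds the printed p53 site, had 29.5, 29.2, 28.6 and 24.9 in vehicle and 23.2, 25.3, 24.1 and 24.2 in sorbitol. Vehicle 4 lay among the sorbitol libraries, and the log2 fold change of -0.21 ± 0.09 (SE) had an edgeR adjusted p of 0.0633, 0.0222 without vehicle 4 and 0.0192 without both replicate 4 libraries. It was -0.06 with a loess offset (adjusted p = 0.591) and -0.04 with factors from gene-boundary peaks (adjusted p = 0.754).

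A weak peak inside SESN1 and the overlapping gene ARMC2 (chr6:109051583-109051896) rose. It had 1.97, 1.33, 1.29 and 1.64 in vehicle and 3.92, 3.11, 2.76 and 2.20 in sorbitol. The groups did not overlap, with a log2 fold change of 0.95 ± 0.25 (SE) and an edgeR adjusted p of 0.00278. In the decile of this peak by mean count, 15.6% of all peaks rose and 4.21% fell. The other 12 SESN1 peaks, outside the peaks at both starts, were not called. The nearest to a start (chr6:109010693-109011025) was centred 1.31 kb from the internal start. Another (chr6:109052820-109053753) had all sorbitol libraries above all vehicle libraries, with a log2 fold change of 0.35 and an edgeR adjusted p of 0.0524.

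The 53 peaks away from the 9 start-site peaks had 5 that rose and 7 that fell. Over all peaks outside RefSeq promoter windows, 27.1% were called, 17.0% as higher and 10.1% as lower. Of these 53, 4 held a promoter window of another gene, and 1 of those, at LMNB2, fell.

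Levels at the start sites were compared per kb of peak width. In vehicle the order was GADD45A (75.7 normalised CPM per kb), the long SESN1 start (44.9), PLK3 (39.6), BTG2 (32.0), MDM2 (26.4), the internal SESN1 start (24.7), CDKN1A (21.1), GADD45G (18.1) and GADD45B (13.3 to 18.6 over the 4 libraries). The ranges over the 4 libraries overlapped between neighbours in this order except below GADD45A and below BTG2. In sorbitol, GADD45G (23.7 ± 2.23, SD, n = 4) and GADD45B (21.0 ± 3.72) reached the level per kb of CDKN1A (22.0 ± 2.00).

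The changes at start sites depend on how libraries are scaled, so a ratio that needs no library factor was also taken. For the 6 start-site peaks with another peak of the same gene within 3 kb, the count was divided by that of the nearest such peak in the same library. This measure was chosen after seeing the data. The ratio cancels a factor shared by all peaks of a library, but not a trend with peak strength. At CDKN1A, BTG2, PLK3 and the internal SESN1 start, the start-site peak was in the strongest decile and its neighbour in a weaker decile. At GADD45G the reverse held, with the neighbour in the strongest decile and the start-site peak in the next. Peaks of the strongest decile fell more often (44.4%, against 27.5% in the next). Both GADD45B peaks were in the next decile. The part of peak strength in these ratios was not tested. A two-sided exact permutation test on the log2 ratios can give no p below 0.0286 with 4 libraries against 4.

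The GADD45B start-site peak gained most relative to its neighbour, which lay 274 bases away. The ratio was 1.18, 0.883, 0.907 and 0.840 in vehicle and 2.24, 2.75, 1.84 and 2.00 in sorbitol. The vehicle ratios lay near 1 and the sorbitol ratios all lay above them, a log2 difference of 1.21 (exact p = 0.0286, adjusted over the 6 ratios 0.0429). The difference ranged from 1.10 to 1.32 when each library was left out.

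The GADD45G ratio, to a stronger peak 180 bases upstream, went from between 0.354 and 0.388 to between 0.410 and 0.568. This was a log2 difference of 0.45, with no overlap (exact p = 0.0286, adjusted 0.0429). The BTG2 ratio went from between 7.43 and 9.86 to between 10.6 and 20.3, a log2 difference of 0.66 with the same exact p values. Its neighbour was weak, with 28 counts in sorbitol 1, the library with the ratio of 20.3. Without single libraries the BTG2 difference ranged from 0.45 to 0.76.

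At the internal SESN1 start the ratio moved the other way, from between 5.55 and 10.1 to between 3.67 and 5.18, a log2 difference of -0.61 (exact p = 0.0286, adjusted 0.0429). The highest ratio was in vehicle 4, whose neighbouring peak had 36 counts, and without vehicle 4 the difference was -0.40. Without other single libraries it ranged from -0.69 to -0.53. The PLK3 ratio had a log2 difference of -0.27 (exact p = 0.0571, adjusted 0.0686) and that of CDKN1A 0.34 (exact p = 0.371), and in both the groups overlapped. The CDKN1A difference ranged from 0.10 (without sorbitol 3) to 0.50 (without sorbitol 1). With 1 library left out, the exact test cannot go below 0.0571.

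**Figure D3:**
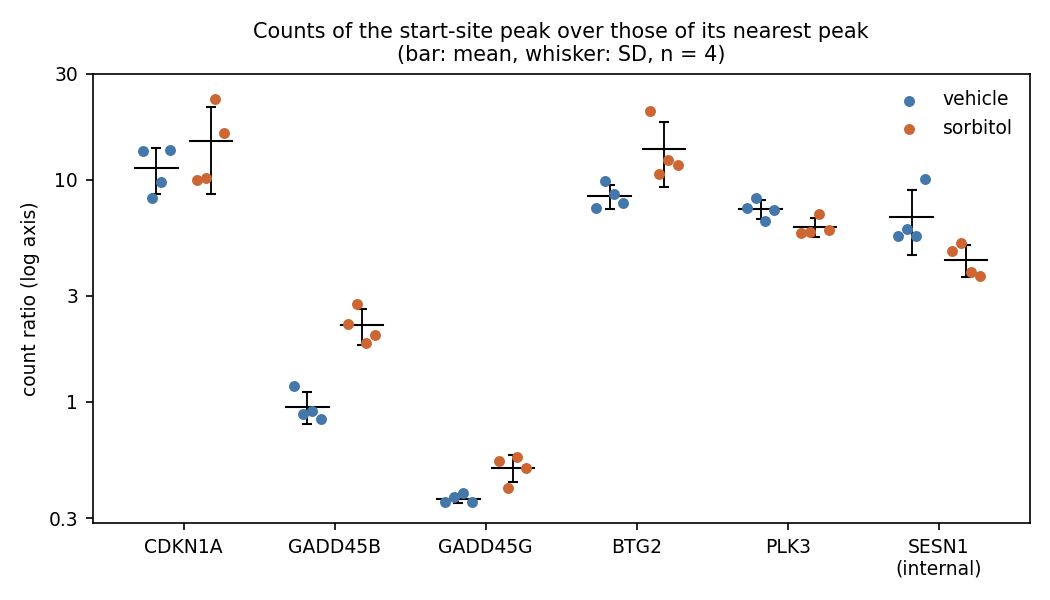
Ratio of the counts of a start-site peak to those of its nearest peak (log axis) in each library, for the 6 start-site peaks with a neighbour within 3 kb, with means as bars and SD as whiskers. The sorbitol libraries lie above the vehicle libraries at GADD45B, GADD45G and BTG2 and below them at the internal SESN1 start.

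Counts were next summed over the peaks of each gene window, to give 1 value per gene, and fitted over 50166 RefSeq gene windows. With TMM factors from these windows, BTG2 (log2 fold change 0.25), GADD45A (0.22), CDKN1A (0.14) and GADD45G (0.14) rose and PLK3 fell (-0.36), with edgeR adjusted p of 9.66e-06, 9.58e-05, 0.0370, 0.0328 and 5.43e-08. MDM2 (-0.09), GADD45B (-0.03) and SESN1 (0.05) did not pass. These 5 of 8 compare with 51.2% of all windows, 26.5% higher and 24.7% lower. Without vehicle 4, sorbitol 2 or sorbitol 4, 3 windows were called, those of BTG2, GADD45A and PLK3. Windows of neighbouring genes share peaks.

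The scaling moved these values. With TMM factors from all peaks, a setting added after seeing the data, the median window had a log2 fold change of -0.14 in place of 0.01. PLK3 then had -0.51 (edgeR adjusted p = 3.08e-12), MDM2 -0.25 (5.62e-04) and GADD45B -0.19 (0.0124), and no gene rose. In that fit 53.4% of windows were called, 12.9% as higher and 40.5% as lower. CDKN1A and GADD45G were at -0.01, with their calls lost. PLK3 fell in every setting tried, and its window went from 147.3 ± 12.9 to 103.3 ± 1.85 normalised CPM (SD, n = 4) with no overlap. Its start-site peak held 26.2% of the counts of that window.

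**Figure D4:**
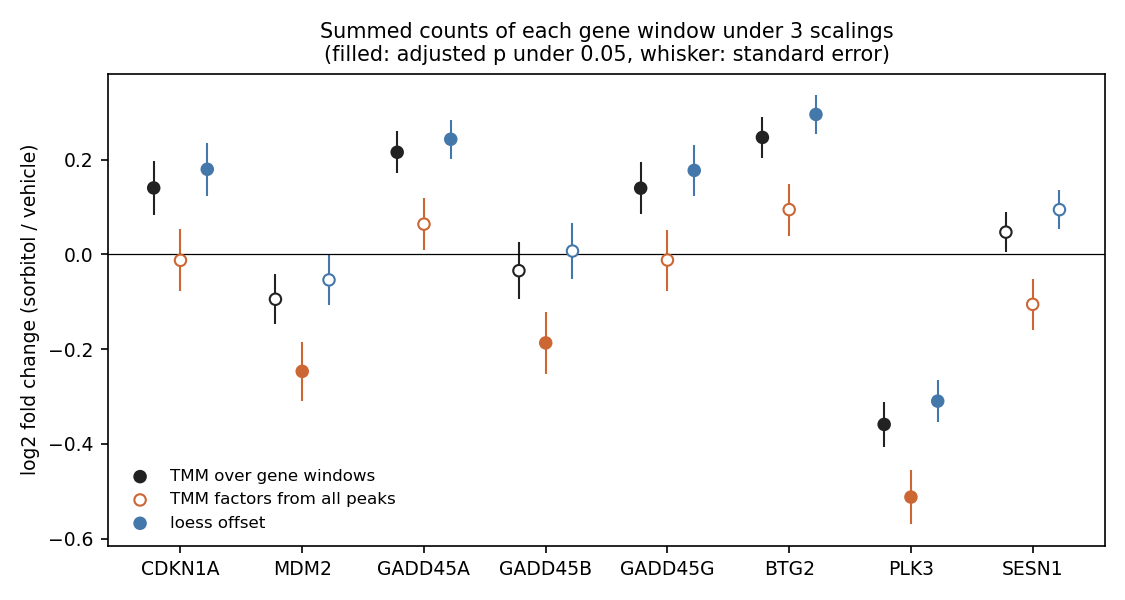
Log2 fold change (sorbitol over vehicle) of the summed counts of each gene window under TMM over gene windows (black), TMM factors from all peaks (orange) and a loess offset (blue), with standard errors as whiskers and filled symbols for an adjusted p under 0.05. PLK3 is filled and below 0 under all 3 scalings.

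The rest of the pathway was described at its start sites. Of 26 other p53 target genes, 24 had a start-site peak (not BBC3 or SFN), and of their 26 peaks none rose and 11 fell (42.3%), with a median of -0.17 on the log2 scale. Among all promoter peaks, 6.98% rose and 41.0% fell, with a median of -0.19, so this list stood near the background. FDXR, a mitochondrial ferredoxin reductase, fell most, from 49.3 ± 4.01 to 27.8 ± 1.68 normalised CPM (SD, n = 4), or by 0.82 on the log2 scale (edgeR adjusted p = 1.06e-10). BAX, the pore-forming apoptosis effector, fell by 0.47 on the log2 scale (edgeR adjusted p = 8.08e-04). No peak of this list was called higher by DESeq2 either. With a loess offset or factors from gene-boundary peaks, 5 of the 26 rose and 5 fell.

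Of 13 regulators of p53, 12 had a start-site peak (not TP63), and of 13 peaks 9 fell (69.2%) and 1 rose (7.69%), with a median of -0.39. The shares over all promoter peaks were 41.0% and 6.98%. CHEK2, a DNA damage checkpoint kinase, fell by 0.59 on the log2 scale (edgeR adjusted p = 1.57e-07), and HIPK2, a kinase that phosphorylates p53, rose by 0.29 (edgeR adjusted p = 0.0148). With a loess offset 7 fell and 2 rose, and the median was -0.22.

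Among 11 partners of GADD45 and stress MAP kinase genes, 8 of 13 start-site peaks fell (61.5%) and none rose, with a median of -0.29, against 41.0%, 6.98% and -0.19 for all promoter peaks. MAP2K7, which activates JNK, fell by 0.62 on the log2 scale (edgeR adjusted p = 3.59e-05), and MAPK14, which encodes p38 alpha, by 0.54 (edgeR adjusted p = 4.45e-05). With a loess offset 4 fell and none rose, and in DESeq2 8 fell and none rose.

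Of 14 relatives of the 8 genes, 13 had a start-site peak (not BTG4), and of 13 peaks 3 rose (23.1%) and 4 fell (30.8%), with a median of -0.12, against 6.98%, 41.0% and -0.19 for all promoter peaks. PLK5, a relative of PLK3, rose from 4.54 ± 0.802 to 8.46 ± 1.21 (SD, n = 4), a log2 fold change of 0.91 (edgeR adjusted p = 1.00e-05). CDKN1C, which encodes p57 and is related to CDKN1A, rose by 0.70 (edgeR adjusted p = 7.36e-07). PLK1, the mitotic polo-like kinase, fell by 0.57 (edgeR adjusted p = 2.93e-06), and MDM4, the MDM2 relative that inhibits p53, by 0.41 (edgeR adjusted p = 1.90e-04). With a loess offset 4 rose and 2 fell, and the median was 0.09. BTG1, PLK2 and SESN2 are counted in this list and among the p53 targets, and MDM4 in this list and among the regulators.

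**Figure D5:**
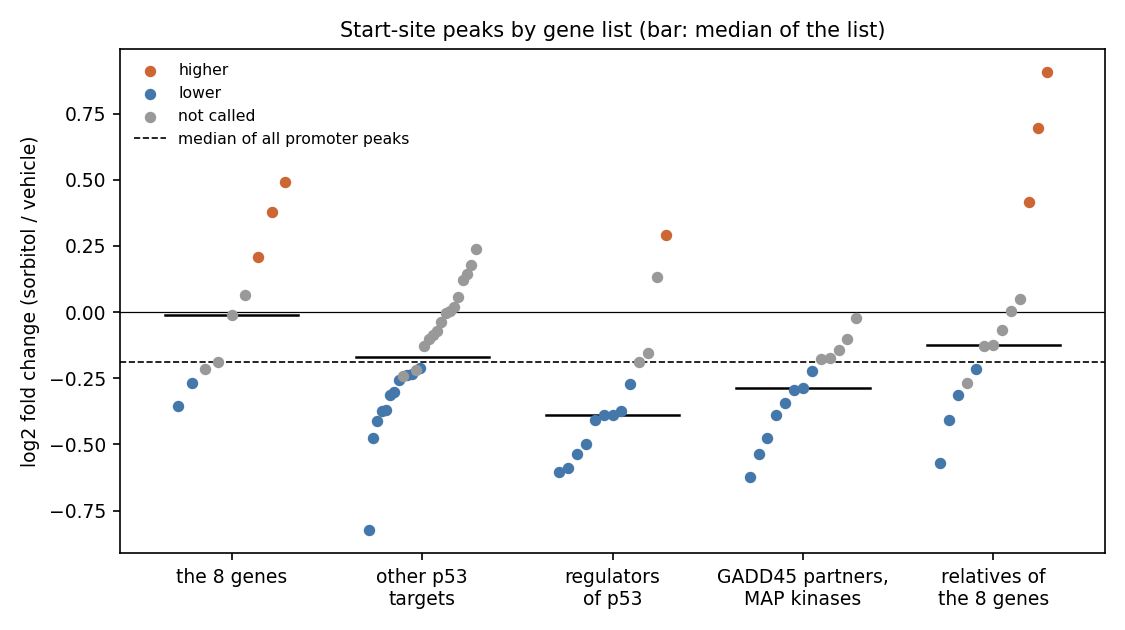
Log2 fold change (sorbitol over vehicle) of each start-site peak of the 8 genes and of 4 lists of related genes, coloured by call, with the median of each list as a bar and the median of all promoter peaks (-0.19) as a dashed line. The 8 genes have 3 called rises and 2 called falls, the other p53 targets 11 falls and no rise.

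For the 9 start-site peaks of the 8 genes, the same scalings gave 5 rises and no fall, with medians of 0.23 (loess) and 0.16 (gene-boundary factors). Over all promoter peaks those scalings gave 2162 rises and 3425 falls with a median of -0.06, and 2548 rises and 3022 falls with a median of -0.01. With factors from peaks on unplaced contigs, none of the 9 was called, against 114 rises and 1082 falls over all promoter peaks.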

How the data were processed

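Omni-ATAC-seq libraries of eGFP-YAP HEK293 cells, 4 vehicle and 4 sorbitol, were grouped by their treatment label. The values used were raw counts in 129536 peaks and 8 libraries, in a table the authors deposited. The submitters' processing notes name Trim Galore 0.6.10, BWA 0.7.17, SAMtools 1.22, Picard, MACS2 2.2.9.1, bedtools, deepTools 3.5.4 and DESeq2, and the builds hg38 and GRCh38, without saying what each was used for. Whether reads or fragments were counted, and how peaks were merged, is not given in the sources used here. Columns were matched to libraries by the treatment and replicate number in their names. PCR duplicates carry no molecular identifiers, so counts are not independent molecules.

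The 8 genes, the lists and the rules were chosen with earlier results of these data known. Gene positions and promoter windows came from RefSeq tables of GRCh38.p14, and peak starts were moved to 1-based positions. The filterByExpr filter, at a minimum count of 10 and a total of at least 15, left out 49 peaks. The whole table was fitted with edgeR 4.0.16 in R 4.3.3 (TMM factors, quasi-likelihood test, treatment as the only term), and p-values were adjusted by Benjamini and Hochberg's method over all tested features. The smallest mean count among the 62 peaks was 16.5, so weak peaks carry large errors. Peaks were named by rule: start-site peaks, the peak with the smallest p of each gene, and called peaks changed at least 2-fold. From each list, the called peaks with the 2 largest changes in each direction were named, and the other called peaks near the 8 genes were named after their values were seen. A start-site peak overlaps a RefSeq promoter window or, without one, is the peak with most counts within 1 kb of a gene end. Scaling alternatives, DESeq2 1.42.0 and fits without single libraries are described in the closing section. The values of 1 peak near PLK3 and of 1 listed regulator are not reported here, though both stay in the counts. The method was run on simulated counts in which few peaks changed, in both directions and without a trend with peak strength. That setting cannot test the choice of scaling.

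Same-numbered libraries did not deviate together from their group means (correlations 0.000128, 0.00656, -0.0307 and -0.132 for replicates 1 to 4), so the numbers were not taken as pairs.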

Additional observations from a re-analysis of the deposited data

Results flagged for a closer look

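In 36 groups of 4 libraries (the 18 named peaks in each treatment), 2 held a library far from the other 3 by Dixon's test, where chance gives about 1.8. At the LMNB2 promoter peak near GADD45B, vehicle 2 had 16.6 normalised CPM and the other vehicle libraries 13.2 to 13.5. At the long SESN1 start, sorbitol 4 had 61.6 and the other sorbitol libraries 55.9 to 56.7. In both peaks the groups still did not overlap.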

How the results depend on the processing

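The 62 peaks had 8 rises with the main settings, 2 with TMM factors from contig peaks, 15 with factors from gene-boundary peaks, 5 at a threshold of 0.01, and 6 to 8 with each library left out. The 9 falls stayed between 6 and 12 under all alternatives tried, 9 to 12 with each library left out. Of the 17 calls, 15 were kept in the same direction with DESeq2, gene-boundary factors or a loess offset, and 8 with contig factors. The 5 called gene windows became 3 with DESeq2's Wald test, with TMM factors from all peaks, at a threshold of 0.01 and without both replicate 4 libraries, and were 3 to 5 with each library left out (3 without vehicle 4, sorbitol 2 or sorbitol 4). The direction turned at 2 start sites, neither of them called: CDKN1A had a log2 fold change of -0.025 without both replicate 4 libraries, and GADD45A had 0.16 with gene-boundary factors, 0.23 with a loess offset, 0.069 with library totals alone, 0.066 with a mean count of at least 50, and -0.079 (without sorbitol 4) to 0.022 (without sorbitol 1) with each library left out. The cause was not tested. With the replicate number as a block, 6 peaks rose and 9 fell and 5 windows were called, with 15 of the 17 calls kept. The start-site call at BTG2 was among those lost (adjusted p = 0.0687). The ratios to neighbouring peaks kept their sign without each library. Depth limits the weakest peaks: at a mean count of 20.3 the standard error was 0.31 on the log2 scale.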
